A study of Mus musculus with 11 samples.

Results

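The genes described here encode 9 enzymes of, or next to, the metabolism of nonessential amino acids: *Asns*, *Got1*, *Aldh18a1*, *Pycr1*, *Cbs*, *Cth*, *Gpt2*, *Pck2* and *Ass1*. They were picked by gene symbol, and all 9 were found among the 18667 genes listed for the cochlea libraries. The choice was made with the difference between the genotypes in these same libraries known, so that difference is given below as a description. Where the fit over all genes is used to count these 9, the count is set beside that of all genes and supports nothing. RNA was measured by bulk RNA-Seq in whole cochleae of mice about 2 months of age, with 5 *Atf6*+/+ (WT) and 6 *Atf6*-/- (ATF6 Knockout) libraries, each from an individual cochlea. Both genotypes were on the C57BL/6J background, which carries the *Cdh23* ahl allele of age-related hearing loss, and the *Atf6*+/+ animals were littermates of the *Atf6*-/- animals. The deletion was germline and not limited to a cell type, males and females were used, and the sample labels do not give the sex of an animal. Values are FPKM, fragment counts scaled to transcript length and to all mapped fragments of a library, so that levels of different genes can be set side by side per length.

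Cells build these amino acids from intermediates of glycolysis and the citric acid cycle. Aspartate aminotransferase (GOT1 in the cytosol) makes and uses aspartate, asparagine synthetase (ASNS) turns aspartate into asparagine, and argininosuccinate synthase (ASS1) joins aspartate to citrulline on the way to arginine. Proline is made from glutamate by ALDH18A1 (P5C synthase) and then by a P5C reductase such as PYCR1, both in mitochondria. Cystathionine β-synthase (CBS) and cystathionine γ-lyase (CTH) carry sulfur from homocysteine to cysteine, the GPT2 transaminase exchanges amino groups between alanine and glutamate in mitochondria, and PCK2 makes phosphoenolpyruvate from oxaloacetate there. Several of these genes are known targets of ATF4, the transcription factor translated when PERK or a related kinase phosphorylates eIF2α. ATF4 binds DNA together with C/EBP or CHOP proteins at a composite site, the C/EBP-ATF response element. ATF6, the factor deleted here, belongs to another arm of the unfolded protein response and acts through ER stress response elements.

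To show where such letters lie, the 250 bases before the annotated start of each gene were searched on both strands for TGATGNAA, the core of the C/EBP-ATF response element. RefSeq windows (GRCm38.p6, whereas the reads were aligned to GRCm39) were matched for 8 of the 9 genes, and *Cth* was not among them. The letters were found in 4 of the 8 windows, those of *Asns*, *Pycr1*, *Pck2* and *Got1*, and in 3.45% of all 32851 windows of that length. They were also found for 1 of 41 other enzymes of amino acid metabolism with a window, *Sqor*. A match is a description of these letters and not evidence of binding. The windows with a match are printed 5′ to 3′ on the strand of the gene, ending at the base before the start, with the match in capitals. They lie at chr6:7693210-7693459 on the minus strand for *Asns*, chr11:120643749-120643998 on the minus strand for *Pycr1*, chr14:55540016-55540265 on the plus strand for *Pck2* and chr19:43524606-43524855 on the minus strand for *Got1*.
Asns: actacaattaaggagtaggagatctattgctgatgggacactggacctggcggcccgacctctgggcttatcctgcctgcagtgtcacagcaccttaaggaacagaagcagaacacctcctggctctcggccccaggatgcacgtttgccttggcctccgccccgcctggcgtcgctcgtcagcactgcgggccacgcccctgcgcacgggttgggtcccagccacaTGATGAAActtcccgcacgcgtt
Pycr1: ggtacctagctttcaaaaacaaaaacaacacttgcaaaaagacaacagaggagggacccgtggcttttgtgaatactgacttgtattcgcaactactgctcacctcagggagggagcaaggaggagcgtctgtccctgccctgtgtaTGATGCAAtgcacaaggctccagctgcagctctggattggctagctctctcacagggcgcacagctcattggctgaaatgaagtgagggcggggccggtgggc
Pck2: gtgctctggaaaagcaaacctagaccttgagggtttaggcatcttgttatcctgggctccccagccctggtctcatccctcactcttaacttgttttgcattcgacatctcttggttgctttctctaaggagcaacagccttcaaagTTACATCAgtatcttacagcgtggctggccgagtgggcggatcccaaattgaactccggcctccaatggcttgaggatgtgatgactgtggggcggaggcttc
Got1: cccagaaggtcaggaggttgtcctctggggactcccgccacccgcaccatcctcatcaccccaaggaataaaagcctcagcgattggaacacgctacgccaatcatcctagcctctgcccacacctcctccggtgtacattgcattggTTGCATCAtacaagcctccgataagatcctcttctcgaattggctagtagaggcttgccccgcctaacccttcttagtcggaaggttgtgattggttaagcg
The match ended 15 bases before the start in *Asns*, 95 in *Pycr1*, 95 in *Pck2* and 94 in *Got1*. In *Asns* and *Pycr1* it read in the direction of the gene, and in *Pck2* and *Got1* in the opposite direction. The windows of *Aldh18a1*, *Cbs*, *Gpt2* and *Ass1* held no match. The letters of ER stress response elements were searched in the same windows. ERSE (in 0.113% of all windows), ERSE-II (in 0.0304%) and TGACGTGG (UPRE, in 0.563%) were found in 0 of the 8, which says only that these letters are not in these windows.

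The labels were checked on the targeted gene. *Atf6* had 9.52 ± 1.11 FPKM (n = 5, SD) in *Atf6*+/+ and 4.27 ± 0.285 FPKM (n = 6, SD) in *Atf6*-/- libraries, and the genotypes did not overlap (log2 fold change -1.13, limma adjusted p = 5.17e-05, exact two-sided permutation p = 0.00216, the smallest these libraries can give). FPKM summed to between 462005 and 537926 per library, and read counts per library were not used here, so no counting error is attached to a value. Markers of the cochlea were detected in all 11 libraries. Their sums were 39.7 to 126 FPKM in *Atf6*+/+ against 69.7 to 152 in *Atf6*-/- for hair cells, 337 to 601 against 441 to 617 for supporting cells, 234 to 444 against 279 to 599 for the stria vascularis, and 3220 to 4890 against 4140 to 6300 for spiral ligament fibrocytes. Higher *Atf6*-/- means were seen for 8 of 8, 6 of 7, 6 of 6 and 5 of 5 of them, at the unadjusted p for 2, 1, 1 and 1, and their part in the results below was not tested. *Atf6*+/+ replicates 3 and 4 stood apart on the first principal component (27.5% of the variance) and had the highest bone marrow scores, the mean log2 level of neutrophil, B cell and erythroid markers, while *Atf6*-/- replicate 5 lay apart on the second (16.9%).

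Across the 9 genes, 8 had a higher mean log2 level in *Atf6*-/- cochleae and 1 a lower one, with a median log2 fold change (log2FC, with its standard error, SE, where given) of 0.21, against -0.01 for all 16169 genes tested, of which 45.3% were higher. In the fit over all genes, 5 of the 9, *Asns*, *Aldh18a1*, *Pycr1*, *Cbs* and *Cth*, passed an unadjusted limma p of 0.05 with a change of more than 0.05 on the log2 scale, and all 5 were higher. That rule was met by 9.85% of all genes tested, 4.48% in the higher and 5.37% in the lower direction. After Benjamini-Hochberg adjustment over all genes in limma, 0 of the 9 had an adjusted p under 0.05, beside 0.068% of all genes. Values of the genotypes did not overlap for *Asns* and *Pycr1*, both higher. Over all genes tested, 1.25% did not overlap, 0.643% with higher and 0.606% with lower *Atf6*-/- values. Because the genes were chosen with this contrast known, these counts are not evidence about the group. As the tissue was bulk, more RNA per cell and more cells that express a gene cannot be told apart.

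**Figure D1:**
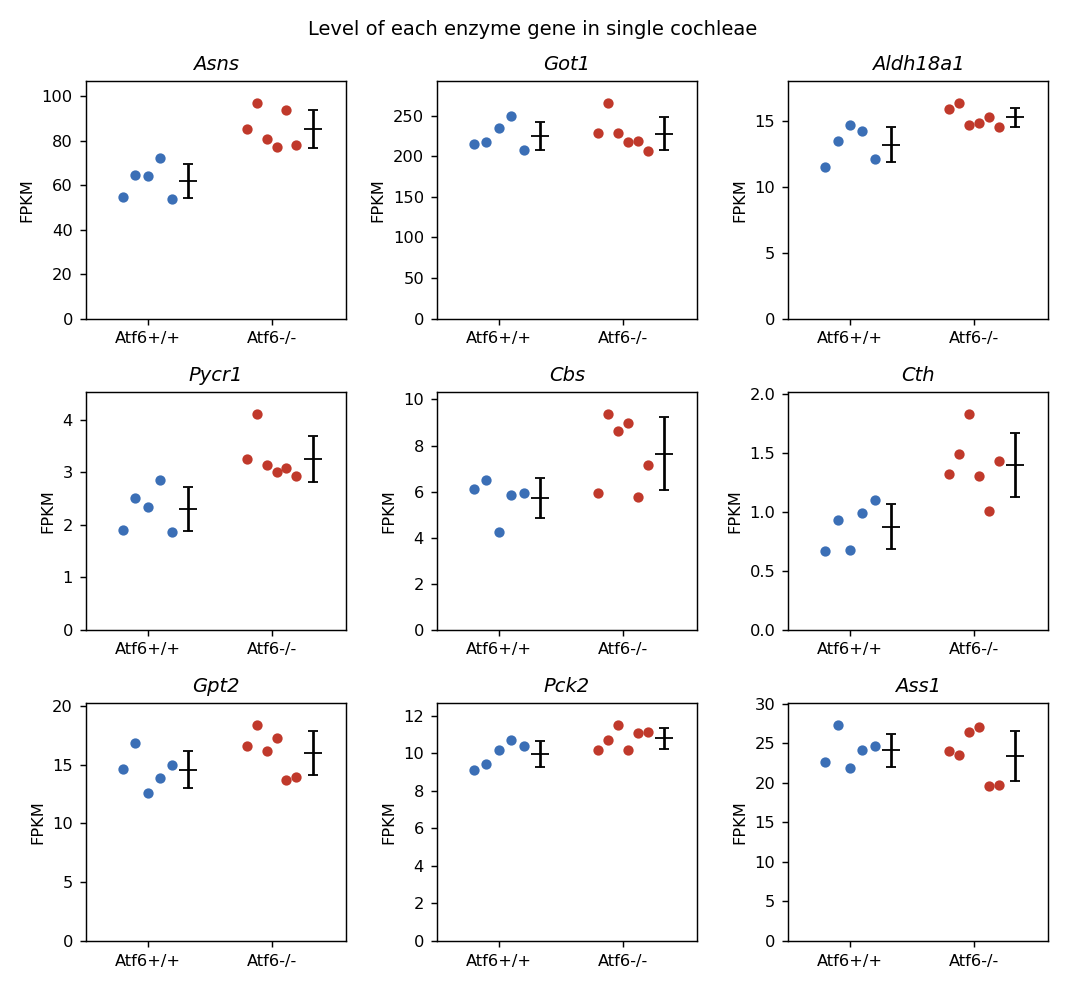
FPKM of each of the 9 genes (vertical axes, each from 0) in 5 *Atf6*+/+ libraries (blue) and 6 *Atf6*-/- libraries (red), 1 point per cochlea in replicate order, with the mean and SD in black. *Asns* and *Pycr1* are the genes without overlap, and *Got1* and *Ass1* have nearly equal means.

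*Asns* (NCBI gene 27053), asparagine synthetase, was the second most abundant of the 9. The *Atf6*+/+ libraries, replicates 1 to 5, held 54.9, 64.5, 64.0, 72.1 and 53.6 FPKM, and the *Atf6*-/- libraries ranged from 77.0 to 97.2 FPKM with a median of 83.1. All 6 *Atf6*-/- cochleae were above the highest *Atf6*+/+ cochlea, replicate 4, and replicates 2 and 5 were the highest. The means were 61.8 ± 7.62 FPKM (n = 5, SD) and 85.4 ± 8.42 FPKM (n = 6, SD), a log2FC of 0.47 (SE 0.087).

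*Got1* (NCBI gene 14718), the cytosolic aspartate aminotransferase that supplies or consumes the aspartate used by ASNS and ASS1, was the most abundant. It held 216, 218, 235, 250 and 208 FPKM in the *Atf6*+/+ libraries and from 207 to 266 FPKM, with a median of 223, in the *Atf6*-/- libraries. The ranges lay almost on top of each other, and the highest *Atf6*-/- value, that of replicate 2, was far from the next, 229 FPKM. The log2FC was 0.01 (SE 0.070), and without that library it was -0.03. Its mitochondrial counterpart *Got2* had 198 ± 9.84 FPKM (n = 5, SD) and 196 ± 8.24 FPKM (n = 6, SD), a log2FC of -0.02, or 0.04 when rescaled to TPM, in which every library has the same sum. *Got1* made up 53.2% of the summed *Got1*, *Got2* and *Got1l1* FPKM in *Atf6*+/+ and 53.7% in *Atf6*-/- libraries, and *Got1l1* was at 0.12 FPKM or less.

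The proline enzymes were both higher in *Atf6*-/- cochleae, by different amounts. *Aldh18a1* (NCBI gene 56454), which makes the proline precursor P5C, held 11.5, 13.5, 14.6, 14.2 and 12.1 FPKM in *Atf6*+/+ and from 14.5 to 16.4 FPKM, with a median of 15.1, in *Atf6*-/- libraries. Of the latter, 5 of 6 exceeded every *Atf6*+/+ library, and replicate 6 fell just below *Atf6*+/+ replicate 3. The means were 13.2 ± 1.35 FPKM (n = 5, SD) and 15.3 ± 0.726 FPKM (n = 6, SD), a log2FC of 0.21 (SE 0.068). *Pycr1* (NCBI gene 209027), a P5C reductase, was much less abundant.

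*Pycr1* held 1.90, 2.50, 2.34, 2.85 and 1.86 FPKM in *Atf6*+/+ and from 2.93 to 4.11 FPKM, with a median of 3.11, in *Atf6*-/- libraries. The groups were separated by a narrow gap, between 2.85 and 2.93 FPKM, and *Atf6*-/- replicate 2 stood above the other 5, which reached at most 3.25 FPKM. Its log2FC was 0.50 (SE 0.127), or 0.43 without that library. Another P5C reductase, *Pycr3*, listed as *Pycrl*, was more abundant, averaging 20.04 FPKM in *Atf6*+/+ and 21.5 FPKM in *Atf6*-/- libraries. Its log2FC was 0.10 (limma, adjusted p = 0.697), or 0.15 at the unadjusted p after rescaling to TPM.

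Both transsulfuration enzymes were low in the cochlea and had higher *Atf6*-/- means. *Cbs* (NCBI gene 12411) held 6.11, 6.50, 4.24, 5.85 and 5.94 FPKM in *Atf6*+/+ and from 5.77 to 9.38 FPKM, with a median of 7.91, in *Atf6*-/- libraries. Among the *Atf6*-/- libraries, replicates 1 and 5 stayed within the *Atf6*+/+ range and the other 4 exceeded it. Its means were 5.73 ± 0.868 FPKM (n = 5, SD) and 7.64 ± 1.58 FPKM (n = 6, SD), a log2FC of 0.40 (SE 0.150), or 0.30 without *Atf6*+/+ replicate 3 and 0.35 (SE 0.200) after adjusting for the marrow score. In both settings, and without *Atf6*+/+ replicates 3 and 4 together (0.28), *Cbs* left the count at the unadjusted p.

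*Cth* (NCBI gene 107869), the next enzyme of that route, had the lowest level of the 9. It held 0.67, 0.93, 0.68, 0.99 and 1.1 FPKM in *Atf6*+/+ and from 1.01 to 1.83 FPKM, with a median of 1.38, in *Atf6*-/- libraries. The groups overlapped through 1 library, *Atf6*-/- replicate 5, and the other 5 were above every *Atf6*+/+ cochlea. Its means were 0.874 ± 0.192 FPKM (n = 5, SD) and 1.40 ± 0.269 FPKM (n = 6, SD), with a log2FC of 0.62 (SE 0.168) on the log2(FPKM + 0.1) scale, which understates changes of low genes. With a pseudocount of 1 FPKM it was 0.35, against 0.46 for *Asns* and 0.37 for *Pycr1*. *Cth* was 13.3% of the summed *Cbs* and *Cth* FPKM in *Atf6*+/+ and 15.6% in *Atf6*-/- libraries, with ranges of 9.88% to 15.6% and 12.7% to 18.2% that overlapped.

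The mitochondrial enzymes *Gpt2* and *Pck2* had smaller differences, and neither was in the count at the unadjusted p. *Gpt2* (NCBI gene 108682) held 14.6, 16.9, 12.6, 13.8 and 14.95 FPKM in *Atf6*+/+ and from 13.7 to 18.4 FPKM, with a median of 16.4, in *Atf6*-/- libraries. The genotypes overlapped widely, with 2 of 6 *Atf6*-/- libraries above every *Atf6*+/+ library. Its log2FC was 0.13 (SE 0.091) and was 0.01 (SE 0.108) after adjusting for the marrow score, or 0.08 without *Atf6*+/+ replicate 3. *Gpt*, the cytosolic form, averaged 3.20 and 3.44 FPKM (log2FC 0.08, limma adjusted p = 0.827). That log2FC was 0.02 without *Atf6*-/- replicate 2 and 0.15 without *Atf6*-/- replicate 5. *Gpt2* was 81.9% and 82.4% of the summed *Gpt2* and *Gpt* FPKM in *Atf6*+/+ and *Atf6*-/- libraries.

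*Pck2* (NCBI gene 74551) held 9.10, 9.40, 10.2, 10.7 and 10.4 FPKM in *Atf6*+/+ and from 10.2 to 11.5 FPKM, with a median of 10.9, in *Atf6*-/- libraries. The groups overlapped from 10.15 to 10.72 FPKM: 3 of the 6 *Atf6*-/- libraries exceeded the highest *Atf6*+/+ library and the other 3 did not. The log2FC was 0.12 (SE 0.059), from 0.08 to 0.14 with 1 library left out, and *Pck2* entered the count at the unadjusted p without *Atf6*+/+ replicate 4, without *Atf6*+/+ replicates 3 and 4 (0.16), without these and *Atf6*-/- replicate 5 (0.16), and after rescaling to TPM (0.17). The cytosolic isoenzyme *Pck1* was at 0.13 FPKM or less in 10 of the 11 libraries and at 1.97 FPKM in *Atf6*+/+ replicate 4.

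*Ass1* (NCBI gene 11898), the arginine pathway enzyme, was the only one of the 9 with a lower *Atf6*-/- mean. It held 22.7, 27.3, 21.8, 24.1 and 24.6 FPKM in *Atf6*+/+ and from 19.6 to 27.1 FPKM, with a median of 23.8, in *Atf6*-/- libraries. *Atf6*-/- replicates 5 and 6 lay below every *Atf6*+/+ library and the other 4 within their range. The log2FC was -0.05 (SE 0.094), smaller than the spread between libraries of 1 genotype, and it was 0.0066 when rescaled to TPM.

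**Figure D2:**
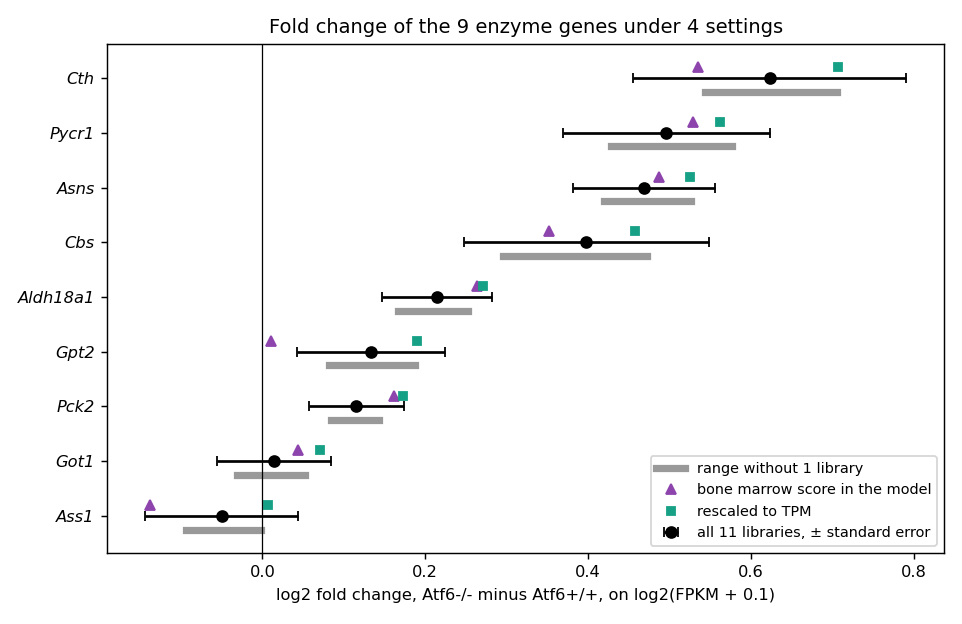
Log2 fold change of each gene (horizontal axis, *Atf6*-/- minus *Atf6*+/+ on the log2(FPKM + 0.1) scale) with its standard error (black), after adjusting for the marrow score (triangles), after rescaling to TPM (squares), and the range when 1 library at a time was left out (grey). *Cth*, *Pycr1*, *Asns*, *Cbs* and *Aldh18a1* stay above 0 in every setting shown, *Gpt2* falls to 0.01 with the marrow score, and *Got1* and *Ass1* lie on both sides of 0.

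By level, the order in both genotypes was *Got1*, *Asns*, *Ass1*, then *Gpt2* and *Aldh18a1*, then *Pck2*, *Cbs*, *Pycr1* and *Cth*. Each neighbouring pair kept its order in 5 of 5 *Atf6*+/+ and 6 of 6 *Atf6*-/- libraries without overlap of the ranges, except *Gpt2* and *Aldh18a1*, where *Gpt2* was higher in 3 of 5 and 4 of 6. Within a genotype, libraries varied least for *Pck2* in *Atf6*+/+ (coefficient of variation 6.81%) and *Aldh18a1* in *Atf6*-/- (4.76%), and most for *Cth* in *Atf6*+/+ (21.9%) and *Cbs* in *Atf6*-/- (20.6%).

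Single libraries differed in which enzymes were high. Averaged over the 9 genes, log2 deviations from the *Atf6*+/+ mean were -0.118 to 0.122 in *Atf6*+/+ and 0.136 to 0.434 in *Atf6*-/- libraries, a direction that the choice of genes fixes. *Atf6*-/- replicate 2 had the highest *Atf6*-/- value for 6 of the 9 genes. Replicate 5 had the lowest *Atf6*-/- value for *Cbs*, *Cth*, *Gpt2* and *Ass1*, while its *Asns* level of 93.9 FPKM was the second highest of all 11 libraries. *Atf6*+/+ replicate 3, with the highest marrow score, was lowest among *Atf6*+/+ libraries for *Cbs*, *Gpt2* and *Ass1*, and replicate 5 for *Asns*, *Got1* and *Pycr1*.

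**Figure D3:**
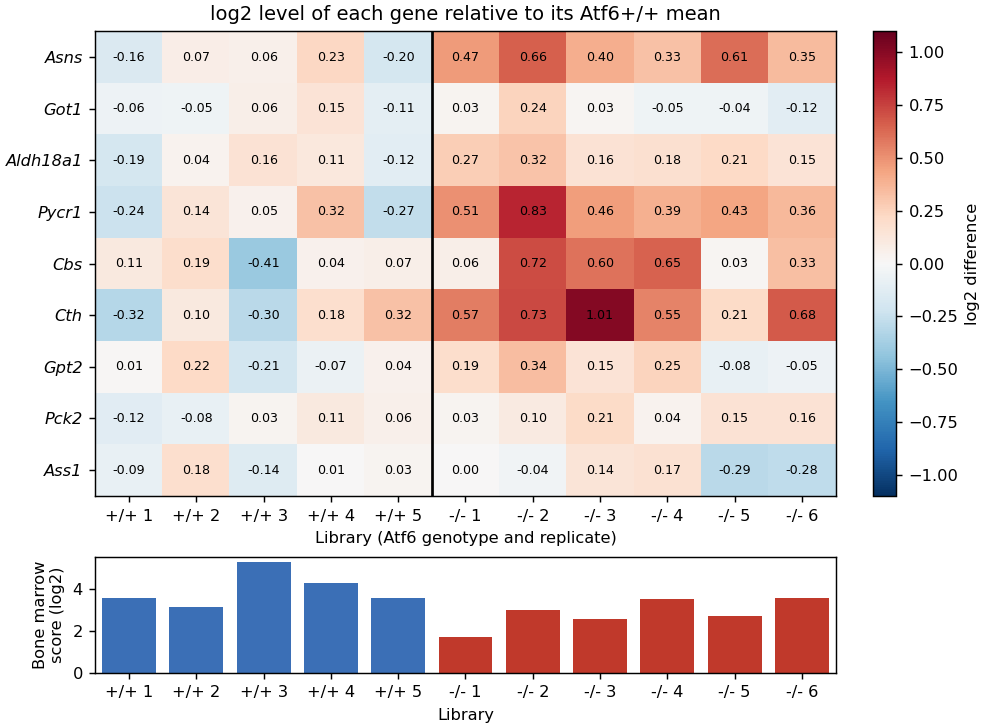
Upper panel, log2 level of each gene (rows) in each library (columns) relative to its *Atf6*+/+ mean. Lower panel, the bone marrow score of each library, the mean log2(FPKM + 0.1) over neutrophil, B cell and erythroid markers, which was 3.13 to 5.26 in *Atf6*+/+ and 1.70 to 3.55 in *Atf6*-/- libraries.

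The genes were chosen with the difference between genotypes known, so covariation was examined after the genotype means had been removed. The libraries are the same ones. Whether the choice also reflected variation within a genotype cannot be told, so the p-values below may not be free of it. Over the 11 libraries, *Asns* was correlated with *Pycr1* (Pearson r = 0.890, Spearman rho = 0.891), *Aldh18a1* (r = 0.818, rho = 0.818) and *Got1* (r = 0.766, rho = 0.782). Permuting libraries within genotypes gave Pearson p = 0.00113, 0.00782 and 0.00704, and 0.00904, 0.0209 and 0.0209 after Benjamini-Hochberg adjustment over 8 pairs. For Spearman's rho, the permutation p was 0.00238, 0.0138 and 0.00959, and adjusted 0.0190, 0.0368 and 0.0368. Without *Atf6*+/+ replicates 4 and 5, the libraries farthest from the *Asns* median, r was 0.810, 0.759 and 0.651. Of 13602 other genes averaging 1 FPKM or more, 0.0441%, 0.316% and 0.831% had an r with *Asns* at least as high. With 1 library left out, an alternative added after the data were seen, r was from 0.842 to 0.990 for *Pycr1*, 0.781 to 0.884 for *Aldh18a1* and 0.683 to 0.888 for *Got1*. Without *Atf6*-/- replicate 2, the highest for both *Asns* and *Got1*, the r of *Got1* was 0.716, and the relation among the other 5 *Atf6*-/- libraries alone was not tested. The relation did not hold for every library: *Atf6*-/- replicate 5, at 93.9 FPKM of *Asns*, had *Got1* and *Pycr1* levels of 218 and 3.08 FPKM, below the *Atf6*-/- means of 228 and 3.25 FPKM.

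The other 5 genes did not show such a relation at this number of libraries. Their r with *Asns* was 0.269 for *Pck2*, -0.0387 for *Gpt2*, -0.105 for *Cth*, -0.147 for *Ass1* and -0.170 for *Cbs*, and rho was 0.236, -0.0636, 0.0364, -0.227 and -0.118. The permutation p was 0.462, 0.912, 0.771, 0.658 and 0.629 for r and 0.540, 0.872, 0.930, 0.474 and 0.733 for rho, and the lowest adjusted value was 0.864. Without the same libraries r was 0.237, 0.0880, -0.106, -0.166 and -0.217. With 1 library left out, r was from 0.0106 to 0.458 for *Pck2* and from -0.308 to 0.148 for *Gpt2*. It was from -0.324 to 0.123 for *Cth*, -0.344 to 0.0314 for *Ass1* and -0.439 to -0.00796 for *Cbs*. *Cth* and *Cbs*, with higher means in *Atf6*-/- libraries, were among these 5 genes. The difference between the correlations was not tested.

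**Figure D4:**
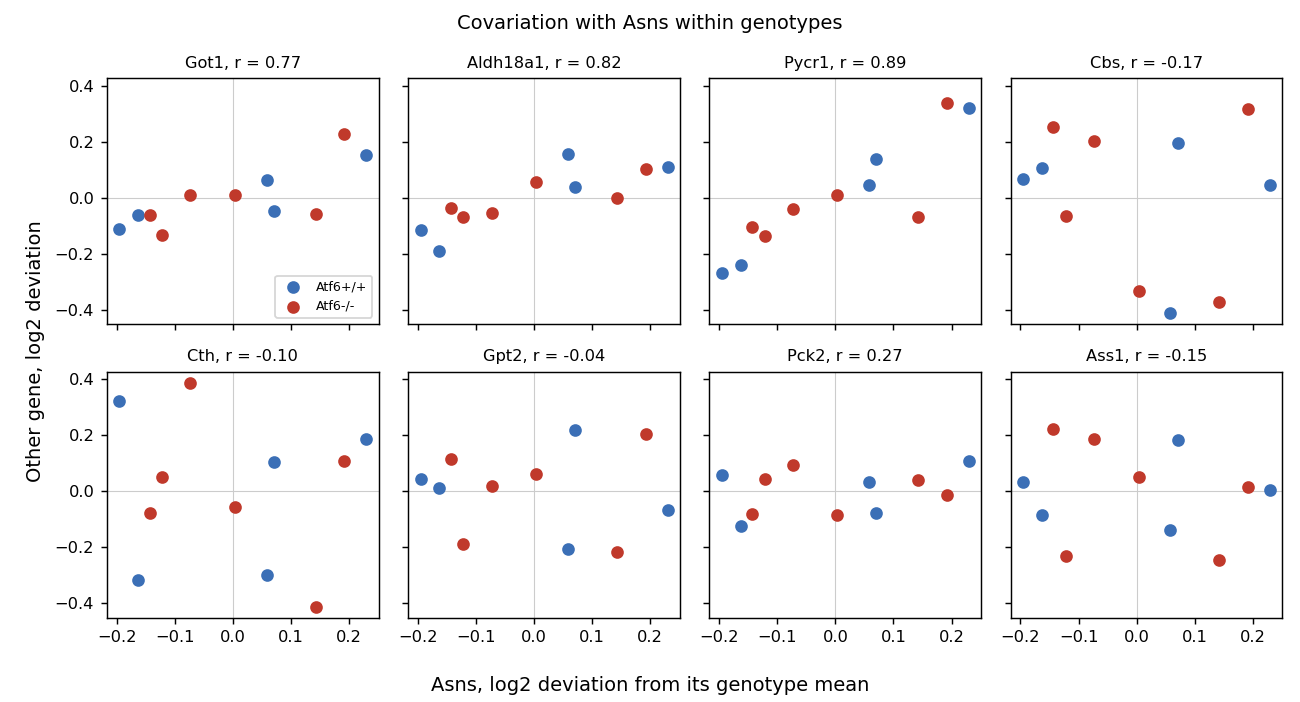
Each panel plots, for 11 libraries, the log2 deviation of *Asns* from its genotype mean (horizontal) against that of another gene (vertical), *Atf6*+/+ in blue and *Atf6*-/- in red. Over the 11 libraries *Pycr1*, *Aldh18a1* and *Got1* rise with *Asns*, with r from 0.766 to 0.890, and for the other 5 genes r is from -0.170 to 0.269.

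Ranked by Pearson r over the levels in all 11 libraries, genotype difference included, the genes most like *Asns* among the same 13602 were *Mthfd2* (0.970), *Cntfr* (0.948), *Chac1* (0.941), *Aars* (0.935) and *Copa* (0.920), given as a description. *Mthfd2* encodes a mitochondrial folate enzyme, *Chac1* a glutathione-degrading enzyme, *Aars* the alanyl-tRNA synthetase, *Cntfr* a cytokine receptor subunit and *Copa* a COPI coat subunit. The other 8 enzyme genes were not ranked. With genotype means removed, the r of these 5 with *Asns* was 0.885, 0.790, 0.858, 0.865 and 0.765. The ranking used the same libraries and so partly fixes these values. *Mthfd2* averaged 12.04 ± 1.39 FPKM (n = 5, SD) in *Atf6*+/+ and 17.3 ± 1.95 FPKM (n = 6, SD) in *Atf6*-/- libraries.

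Bone marrow markers moved with genotype and are given beside these values. All 10 neutrophil, 10 B cell and 10 erythroid markers were detected, and 10, 9 and 10 of them had lower means in *Atf6*-/- cochleae, 5, 3 and 8 at the unadjusted p. Summed levels were 262 to 3260 FPKM in *Atf6*+/+ against 94.2 to 1240 FPKM in *Atf6*-/- libraries for neutrophil markers, 31.9 to 57.5 against 30.5 to 40.6 FPKM for B cell markers, and 4840 to 46400 against 2880 to 9390 FPKM for erythroid markers. With the marrow score as a covariate the log2FC values of *Asns*, *Pycr1*, *Aldh18a1* and *Cth* were 0.49, 0.53, 0.26 and 0.54. Without *Atf6*+/+ replicates 3 and 4, an alternative added after the data were seen, they were 0.56, 0.62, 0.30 and 0.59. Macrophage markers (7 of 8 lower) and bone markers (8 of 8 lower) had 0 genes at the unadjusted p by limma, and of 3 tested liver markers 1 was lower at it. The part of these other cells in the results was not tested.

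The remaining enzymes of amino acid metabolism were taken from a list of 59 genes in 6 groups, of which 58 were found and 52 passed the filter of 0.1 FPKM. Their median log2FC was 0.03, with 28 higher and 24 lower. At the unadjusted limma p, 6 were higher and 2 lower in *Atf6*-/- cochleae, which is 15.4% of those tested beside 9.85% of all genes, and 0 had an adjusted p under 0.05 in limma. After rescaling to TPM the split was 9 higher and 1 lower. The count was 2, *Bcat2* and *Sqor*, with the marrow score in the model and 1, *Bcat2*, without *Atf6*+/+ replicates 3 and 4. It was 4 without *Atf6*+/+ replicate 3 alone, and 5 without *Atf6*+/+ replicate 4 or *Atf6*-/- replicate 1, 3 or 4.

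Among genes of asparagine, aspartate and glutamine, 1 of 9 tested was at the unadjusted p, and it was higher. *Glul*, glutamine synthetase, had 513 ± 73.3 FPKM (n = 5, SD) and 620.0 ± 47.7 FPKM (n = 6, SD), a log2FC of 0.28 (limma, adjusted p = 0.409, exact two-sided permutation p = 0.0216), or 0.17 with the marrow score. *Aspg*, an asparaginase, had a log2FC of 0.18 (limma, adjusted p = 0.751).

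Among 5 proline genes besides those above, 5 had higher means and 1 was at the unadjusted p. *Prodh*, proline dehydrogenase, which breaks proline down, had 17.0 ± 3.35 FPKM (n = 5, SD) and 20.6 ± 2.78 FPKM (n = 6, SD), a log2FC of 0.29 (limma, adjusted p = 0.505, exact two-sided permutation p = 0.0779), or 0.05 with the marrow score. Without *Atf6*+/+ replicate 3 it was 0.17 and no longer at the unadjusted p. The call was lost in 13 of 23 alternatives, and among single libraries it was kept only without *Atf6*+/+ replicate 2 or 5 or *Atf6*-/- replicate 6. Of 16 genes of methionine and cysteine metabolism, 10 were higher and 6 lower, and only *Sqor* was at the unadjusted p. *Sqor*, which oxidizes hydrogen sulfide in mitochondria, had 8.09 ± 0.885 FPKM (n = 5, SD) and 6.53 ± 0.995 FPKM (n = 6, SD), a log2FC of -0.31 (limma, adjusted p = 0.428, exact two-sided permutation p = 0.0238), with 5 of 6 *Atf6*-/- libraries below every *Atf6*+/+ library. It was the gene of this list with the C/EBP-ATF letters in its window.

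The 9 transaminase and branched-chain genes tested included *Bcat2* and *Abat*. *Bcat2*, the mitochondrial branched-chain transaminase, had the smallest p of the list, with 34.5 ± 2.98 FPKM (n = 5, SD) in *Atf6*+/+ and 41.8 ± 2.48 FPKM (n = 6, SD) in *Atf6*-/- cochleae, a log2FC of 0.28 (limma, adjusted p = 0.218, exact two-sided permutation p = 0.00649). Of the *Atf6*-/- libraries, 5 of 6 exceeded every *Atf6*+/+ library, and the log2FC was 0.20 with the marrow score in the model. *Abat*, which degrades GABA, had a log2FC of 0.24 (limma, adjusted p = 0.505, exact two-sided permutation p = 0.0519), or 0.15 without *Atf6*-/- replicate 2, its highest library at 45.3 FPKM. That call was lost in 11 of 23 alternatives, among them leaving out *Atf6*+/+ replicate 3, 4 or 5 or *Atf6*-/- replicate 2, 3, 4 or 6.

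Of 6 genes tested in the phosphoenolpyruvate and pyruvate group, 1 was higher and 1 lower at the unadjusted p. *Pcx*, pyruvate carboxylase, had 26.2 ± 1.72 FPKM (n = 5, SD) and 28.3 ± 0.920 FPKM (n = 6, SD), a log2FC of 0.11 (limma, adjusted p = 0.491, exact two-sided permutation p = 0.0130), or 0.05 with the marrow score. Without *Atf6*+/+ replicate 3 it was 0.07 and no longer at the unadjusted p. The call was lost in 11 of 23 alternatives, also without *Atf6*+/+ replicate 5 or *Atf6*-/- replicate 1, 2, 3 or 4. *Me2*, the mitochondrial malic enzyme, had 7.94 ± 0.707 FPKM (n = 5, SD) and 7.002 ± 0.473 FPKM (n = 6, SD), a log2FC of -0.18 (limma, adjusted p = 0.475, exact two-sided permutation p = 0.0260), or -0.08 with the marrow score. That call was lost in 9 of 23 alternatives, among them leaving out *Atf6*+/+ replicate 1 or 3 or *Atf6*-/- replicate 1 or 5. Of 7 arginine and urea cycle genes tested, 1, *Odc1*, was at the unadjusted p. *Odc1*, ornithine decarboxylase, had 80.4 ± 17.8 FPKM (n = 5, SD) and 104 ± 13.8 FPKM (n = 6, SD), a log2FC of 0.38 (limma, adjusted p = 0.431, exact two-sided permutation p = 0.0325), or 0.11 with the marrow score. Without *Atf6*+/+ replicate 4 it was 0.31 and no longer at the unadjusted p. *Asl*, the step after ASS1, had a log2FC of -0.04 (limma, adjusted p = 0.915).

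**Figure D5:**
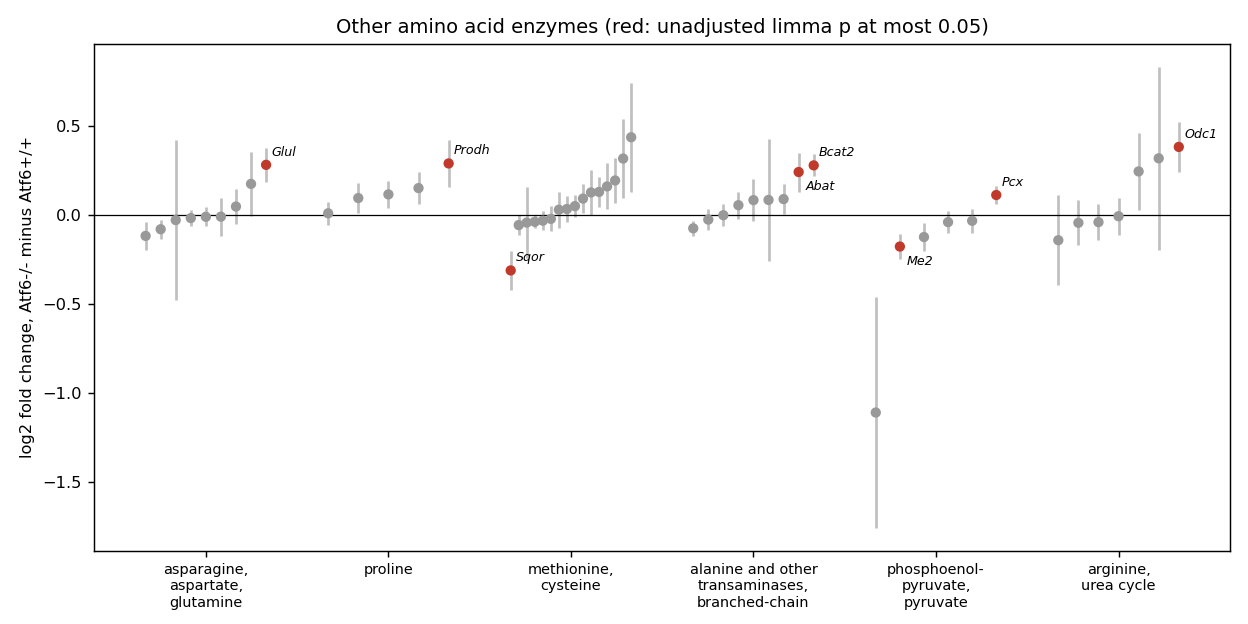
Log2 fold change (vertical axis, *Atf6*-/- minus *Atf6*+/+) with its standard error for the 52 other enzyme genes tested, in 6 groups. The 8 genes at an unadjusted limma p of at most 0.05 are red and named, and the low point with the wide error is *Pck1*, which rests on 1 *Atf6*+/+ library.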

How the data were processed

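RNA-Seq was performed on whole cochleae, 5 *Atf6*+/+ and 6 *Atf6*-/-. The authors aligned reads of stranded mRNA libraries to GRCm39 with HISAT2 2.0.4 and computed FPKM with RSEM (1.2.12 in the submitters' processing notes, another version in the study's methods), and the deposited FPKM values have 2 decimals. The study's methods state a nominal sequencing depth. Read counts per library were not used here, and the study's DESeq2 1.4.5 test was not repeated. Tables were joined by NCBI gene identifier. Values were tested as log2(FPKM + 0.1) for the 16169 genes averaging 0.1 FPKM or more. The fit was made in R 4.3.3 by limma 3.58.1, allowing the prior variance to follow the mean, with genotype as the only term, two-sided p-values and Benjamini-Hochberg adjustment over all genes tested. In simulated data of 16169 genes, each varying independently, the fit found 89.5% of 200 genes given a log2 change of 1, and 2.19% of its calls were false. Variation shared between genes, such as that of the marrow markers, was not simulated. The log2 changes of the 9 enzyme genes were at most 0.62, so these rates do not carry over to them. Single genes were also compared by exact two-sided permutation over 462 splits, whose smallest p is 0.00216. The permuted quantity was the difference in mean FPKM and not in log2 values. Covariation used all 86400 rearrangements within genotypes. The sources call the libraries individual cochleae and do not say that each came from a different animal, so p-values measure only the spread between libraries, which may be technical.

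The genes and lists were chosen with earlier results of these data known. Genes named are the 9 enzymes, their paralogues, the other enzymes with the 6 smallest p, the 5 genes most like *Asns*, *Atf6*, and further enzymes as examples of the groups described (*Prodh*, *Abat*, *Aspg* and *Asl*). Some genes of these lists are counted but not reported here by name. Alternatives were other pseudocounts (1 and 0.01), filters (above 0 in 1 library, or an average of 1 FPKM or more), TPM or median-of-ratios scaling, robust variance, a replicate block, the marrow score, the level of Y-linked transcripts, and leaving out each library. Replicate numbers were not used as pairs. Permutations ran in Python 3.11.15 (scipy 1.17.1), and plots were drawn by matplotlib 3.10.9. Promoter windows are from RefSeq (GRCm38.p6).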

Additional observations from a re-analysis of the deposited data

Results flagged for a closer look

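In 48 groups checked, of 5 or 6 libraries each, 6 had a highest or lowest library that lay far from the rest. Chance gives about 1 in 20 groups if values are normal and groups independent. Genes near 0 FPKM and several genes that are high in the same library do not meet this, so no conclusion is drawn from the count. *Atf6*-/- replicate 2 was the highest *Atf6*-/- library by such a gap for *Got1* (266.05 FPKM, the others from 207.04 to 228.89), *Pycr1* (4.11 FPKM, the others from 2.93 to 3.25) and *Got2* (212.1 FPKM, the others from 190.07 to 197.19). *Atf6*+/+ replicate 3 was the lowest *Atf6*+/+ library for *Cbs* (4.24 FPKM, the others from 5.85 to 6.50). *Atf6*+/+ replicate 4 was the highest for *Pck1* (1.97 FPKM, the others from 0.02 to 0.13), and *Atf6*-/- replicate 1 for *Got1l1* (0.12 FPKM, the others from 0 to 0.03), a level near the last decimal of the values.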

How the results depend on the processing

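Under each of the 23 alternatives the log2 fold change of each of the 9 genes moved by less than the SD between libraries, and their median was from 0.17 to 0.25 without 1 library. Among the 9, from 4 to 6 were at the unadjusted p without 1 library, beside 1196 to 1865 of all genes. The count of the other enzymes, 8, was 2 with the marrow score in the model, 4 with the level of Y-linked transcripts, from 4 to 8 without 1 library, 1 without *Atf6*+/+ replicates 3 and 4 and 2 without these and *Atf6*-/- replicate 5, both added after the data were seen. With a replicate block it was 5, and numbers did not pair the libraries: correlations of deviations between libraries with the same number were from -0.305 to 0.213. With the block the count among the 9 was 5, beside 1082 of all genes. That fit held only replicates 1 to 5 of each genotype and so lacked *Atf6*-/- replicate 6. Leaving out that library without a block gave 1196 of all genes.

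The log2 fold change of *Got2* changed sign when rescaled to TPM (0.040), with the marrow score (0.032), without *Atf6*+/+ replicates 3 and 4 (0.026) or these and *Atf6*-/- replicate 5 (0.031), and ranged from -0.039 to 0.0094 without 1 library. The cause was not tested. Over all genes, 1592 were at the unadjusted p, but 896 with the marrow score and 1010 and 1006 without those libraries. In limma 11 had an adjusted p under 0.05, but 6 with the marrow score and 4 with the block. Without *Atf6*-/- replicate 6, which the block fit also lacked, 9 had one. No value carries a counting error, because read counts per library were not used here.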

Other observations

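The labels give no sex, and transcripts of 4 Y-linked genes (*Ddx3y*, *Eif2s3y*, *Kdm5d* and *Uty*) fell into separate levels. Their sum was from 33.4 to 41.0 FPKM in *Atf6*+/+ replicates 2, 3 and 4 and from 34.8 to 37.2 FPKM in *Atf6*-/- replicates 4, 5 and 6. It was from 0.22 to 0.36 FPKM in *Atf6*+/+ replicate 5 and *Atf6*-/- replicates 1, 2 and 3. *Atf6*+/+ replicate 1 lay between, at 15.6 FPKM, although each library is described as 1 cochlea. With the mean log2 level of these transcripts in the model the log2 fold change was 0.48 for *Asns* and 0.54 for *Cth*, and without *Atf6*+/+ replicate 1 it was 0.43 and 0.54.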
